A study of Mus musculus with 9 samples.

Results

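The genes described here are 10 neuropeptides, enzymes and calcium-binding proteins by which GABA-releasing interneurons are told apart: Npy, Sst, Cort, Nos1, Th, Pvalb, Calb1, Calb2, Vip and Cck. They were taken by gene symbol, and all 10 were measured, by 16 probe sets, among 18193 genes in all. Striatal RNA was hybridised to 1 array per mouse, for 5 mice of the R6/2 line (numbered R62_86, then R62_95, R62_105, R62_107 and R62_109) and 4 wild-type mice (46, 47, 49 and 66). All mice were labelled female, of strain C57Bl/6 / CBA and 12 weeks old, at 85 days for R62_86 and all wild-type animals and 83 days for the other R6/2 animals. The R6/2 transgene holds exon 1 of human huntingtin, lengthened by extra CAG triplets and driven by the human gene's promoter, which is active in many tissues, whereas the wild-type mice carry no transgene. No treatment was given in the labels, and no pooling of animals was stated.

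Interneurons are a small minority of striatal neurons and connect locally, whereas the spiny projection neurons form the bulk of the tissue and are also GABAergic. One interneuron class contains somatostatin, neuropeptide Y and neuronal nitric oxide synthase together. A second, fast-spiking class contains parvalbumin, and smaller classes contain calretinin, tyrosine hydroxylase, or the peptides cholecystokinin and vasoactive intestinal peptide. Several of these genes are also used elsewhere: calbindin (Calb1) is abundant in projection neurons of the striatal matrix, Cck and Vip in cortex, and Calb2 in the granule cells of the cerebellum.

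Values are log2 expression, and each difference is R6/2 minus wild-type from limma, called when its Benjamini-Hochberg adjusted p over all 18193 genes was under 0.05. In striatal tissue, fewer cells of a type and less RNA per cell cannot be told apart. The 15 measured projection neuron markers gave a mean level of 9.75 to 10.56 in R6/2 and 11.50 to 11.80 in wild-type arrays, as a check of the labelled tissue. Some arrays also held transcripts of neighbouring tissue. The mean of 10 choroid plexus markers was highest in R62_107 (7.02), wild-type 47 (8.24) and wild-type 66 (8.42) and 5.07 to 6.03 in the other arrays. The mean of 10 cortex projection neuron markers ranged from 6.76 to 7.57 in R6/2 and from 6.06 to 6.97 in wild-type mice. R62_109 stood apart by cerebellar transcripts such as Gabra6, a granule cell receptor subunit (7.93, against 3.34 to 5.15 in the other arrays), by the hypothalamic peptide gene Pmch (6.22, against 4.05 to 4.71) and by the Y-linked transcript Eif2s3y (5.03, against 2.91 to 3.50), although its label is female. It also had the highest mean of the thalamus markers (5.31, against 4.75 to 5.01). Its mean of the hypothalamus markers was the highest too (5.53, against 5.10 to 5.36). Pmch is one of those markers, so that mean is not separate from the Pmch value. In the same mouse the Y-linked Uty was the highest (3.81, against 3.21 to 3.51) and Xist, the transcript of the inactive X chromosome, the lowest (9.77, against 10.05 to 11.42). These genes and the cerebellum list were chosen after their values were seen.

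Of the 10 genes, 3 fell in R6/2 mice (Calb1, Npy and Sst), 0 rose and 7 did not pass. Among all genes 16.9% passed, 7.57% lower and 9.28% higher. This share includes dim genes, whereas 8 of the 10 were brighter than the median gene. With only the brighter 50% of genes tested, 1086 were lower and 1624 higher, a larger share than over all genes. At an unadjusted p under 0.05, limma gave 5 of the 10 lower and 1 higher. The median difference was -0.10 over the 10 genes and -0.02 over all genes. For the same 3 genes every R6/2 value lay below every wild-type value, as held for 8.09% of all genes (17.3% had no overlap in either direction). The differences were small beside those of the projection neuron markers, all 15 of which fell, with a median of -1.27. Markers of other cells also fell: 3 of 4 of cholinergic interneurons (median -0.84), 3 of 6 of microglia (median -0.54) and 3 of 6 of astrocytes (median -0.34), with none of these lists' genes higher. The mean of the microglia markers was 7.67 to 8.14 in R6/2 and 8.21 to 8.64 in wild-type mice, that of the astrocyte markers 9.48 to 9.74 in R6/2 and 9.71 to 10.02 in wild-type mice, and that of the cholinergic markers 4.85 to 5.42 in R6/2 and 5.64 to 5.91 in wild-type mice. The part of cholinergic interneurons, microglia and astrocytes in the falls of Calb1, Npy and Sst was not tested. RMA values are relative within an array: after centring on housekeeping genes, Nos1 and Th also passed, for 5 of the 10 lower, and the calls over all genes were 2411 lower and 732 higher, against 1378 lower and 1688 higher without it. The housekeeping genes themselves differed: of 7 measured, 2 were higher in R6/2 and 0 lower, with a mean of 11.49 against 11.39 in wild-type. Centring on them therefore lowers every R6/2 minus wild-type difference, and the added lower calls are no separate evidence of falls.

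**Figure D1:**
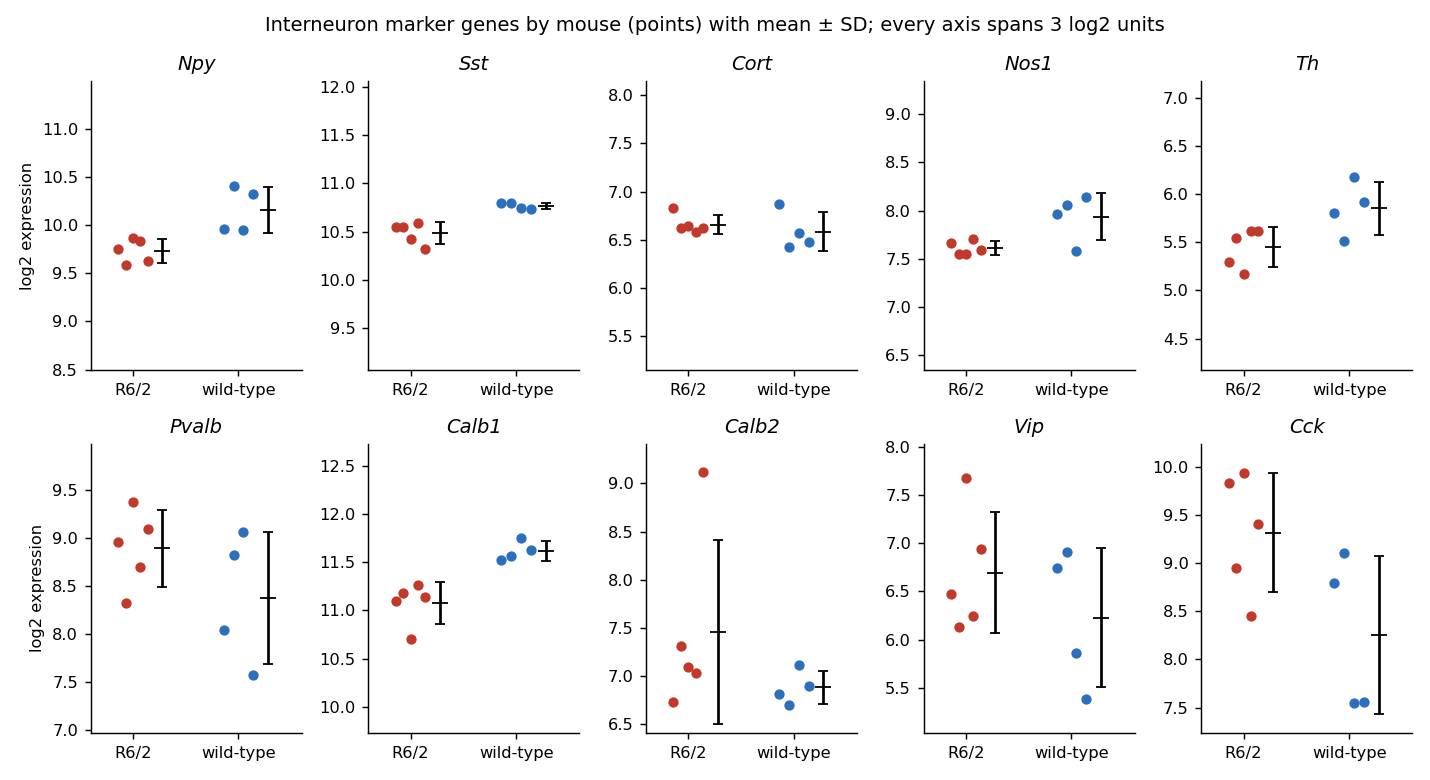
Log2 expression of the 10 genes in each mouse, with R6/2 mice (red) left of wild-type mice (blue); bars give the mean ± SD (n = 5 and 4). The groups are separate for Npy, Sst and Calb1, whereas Vip, Cck and Pvalb vary widely within both genotypes and 1 R6/2 mouse stands out for Calb2.

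The peptide genes Npy and Sst fell by modest amounts. Npy, on chromosome 6 (49822710 to 49829507, GRCm38.p6), encodes neuropeptide Y, an inhibitory transmitter that also acts on blood vessels. Its level was 9.75, 9.59, 9.86, 9.84 and 9.62 in R62_86, R62_95, R62_105, R62_107 and R62_109, against 9.96, 10.40, 9.95 and 10.32 in wild-type mice 46, 47, 49 and 66. Every R6/2 mouse lay below every wild-type mouse, and the fall was 0.43 ± 0.11 (SE, adjusted p = 0.0230), to 0.744 of the wild-type level. Among the wild-type mice, the higher values belonged to 47 and 66, the arrays rich in choroid plexus transcripts. Without these arrays and R62_107 the difference was -0.25 ± 0.10 (adjusted p = 0.197). Only 4.85% of all genes passed there.

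Sst, on chromosome 16 (23889573 to 23891342), encodes somatostatin, a peptide that inhibits release of hormones and transmitters. It was the most even of the 10 genes in wild-type mice. Levels were 10.55, 10.55, 10.42, 10.59 and 10.32 in the R6/2 mice in the order above, against 10.80, 10.79, 10.74 and 10.73 in the wild-type mice. No R6/2 mouse reached the wild-type range, and Sst fell by 0.28 ± 0.07 (SE, adjusted p = 0.0186), to 0.824 of the wild-type level. Leaving out the same 3 arrays gave a difference of -0.31 ± 0.10 (adjusted p = 0.113), so the size of the Sst difference did not shrink there.

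Cort, on chromosome 4 (149125034 to 149126763), encodes cortistatin, a relative of somatostatin that binds the same receptors. Levels were 6.82, 6.62, 6.65, 6.58 and 6.62 in R6/2 mice, against 6.87, 6.42, 6.57 and 6.48 in wild-type mice. The ranges overlapped, and the difference was 0.07 ± 0.09 (SE, adjusted p = 0.641), with a 95% interval of -0.14 to 0.28. In R62_86 Cort lay above the other R6/2 mice, and wild-type 46 likewise exceeded the other wild-type mice.

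Nos1, on chromosome 5 (117866839 to 117958840), encodes the neuronal nitric oxide synthase, which makes the diffusible messenger nitric oxide in response to calcium. Its main probe set read 7.67, 7.55, 7.55, 7.71 and 7.59 in R6/2 mice, against 7.97, 8.06, 7.58 and 8.14 in wild-type mice. Wild-type 49 was the only wild-type mouse within the R6/2 range. The difference was -0.33 ± 0.10 (SE, 95% interval -0.56 to -0.10) and did not pass (adjusted p = 0.0557). Without wild-type 49 it was -0.44 ± 0.07 (adjusted p = 0.00296), and without the 3 arrays rich in choroid plexus transcripts it was -0.19 ± 0.12 (adjusted p = 0.383). By limma, Nos1 also passed with a filter on dim genes (adjusted p = 0.0379), quantile normalization (0.0440) or array weights (0.00580). It did not pass after centring on the array median (0.0505), without moderation of the variance (0.114), or with the cortex score as a covariate (0.405).

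The other probe sets of Nos1 placed wild-type 49 differently. When all 45037 probe sets that are not controls were tested one by one, of which 10.4% passed and 4.57% were lower, 1 of the 4 Nos1 probe sets was lower. This was 1422949_at, at 5.05, 5.00, 5.15, 5.06 and 5.22 in R6/2 mice, against 5.54, 5.36, 5.23 and 5.61 in wild-type mice (-0.34 ± 0.09, adjusted p = 0.0359), and here wild-type 49 was the lowest wild-type value though still above all R6/2 mice. For 1438483_at wild-type 49 was at 7.30, below all 5 R6/2 mice (7.34 to 7.64), while the other wild-type mice read 7.91 to 8.21 (-0.37 ± 0.17, adjusted p = 0.202). The dimmest, 1458626_at, ranged from 3.39 to 3.74 in R6/2 and from 3.50 to 3.78 in wild-type mice (-0.10 ± 0.09, adjusted p = 0.538), and wild-type 49 did not stand apart there.

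Since Npy, Sst and Nos1 occur together in one interneuron class and Pvalb in another, the change of one gene was set against that of another within each mouse. None of these genes need be confined to its class in this tissue. Exact two-sided permutation tests over all splits of the mice were run for the 6 pairs of these genes, with a smallest possible p of 0.00794. Among Npy, Sst and Nos1 the changes differed by -0.15 for Npy minus Sst (p = 0.278 by the exact test, adjusted p = 0.371), by -0.10 for Npy minus Nos1 (exact p = 0.310, adjusted p = 0.371) and by 0.05 for Sst minus Nos1 (exact p = 0.635, adjusted p = 0.635). Against Pvalb the differences were larger: -0.94 for Npy (exact p = 0.0397), -0.80 for Sst (exact p = 0.0873) and -0.84 for Nos1 (exact p = 0.0952). The adjusted p of these 3 was 0.190 each by the exact permutation test, so none passed after correction for the 6 pairs.

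The sequences before the starts of 5 of these genes are shown because Sst, Vip, Th and Cck are long-studied targets of cyclic AMP signalling, whose factor CREB binds the element TGACGTCA and its 5-base part TGACG, and because Npy fell with Sst. Each run covers the 150 bases before the transcript start that the RefSeq promoter table uses (GRCm38.p6), 5′ to 3′ on the gene's strand, with matches to TGACGTCA, or to TGACG on either strand, in capitals (CGTCA is TGACG read on the other strand). The Sst window is chr16:23890845-23890994 (minus strand), that of Npy chr6:49822560-49822709 (plus), that of Th chr7:142899996-142900145 (minus), that of Vip chr10:5639068-5639217 (plus) and that of Cck chr9:121495695-121495844 (minus). For Npy, Th and Cck that start is the first base of the gene span given for each gene, whereas for Sst (start 23890844) and Vip (start 5639218) it lies 498 and 25 bases inside the span, so the Sst window and part of the Vip window lie within the span.
Sst: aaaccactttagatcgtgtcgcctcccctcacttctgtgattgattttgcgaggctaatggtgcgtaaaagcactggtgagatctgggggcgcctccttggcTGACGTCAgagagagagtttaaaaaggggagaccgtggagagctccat
Npy: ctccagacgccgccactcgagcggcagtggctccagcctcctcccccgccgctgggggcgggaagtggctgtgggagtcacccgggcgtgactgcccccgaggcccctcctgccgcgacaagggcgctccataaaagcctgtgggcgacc
Th: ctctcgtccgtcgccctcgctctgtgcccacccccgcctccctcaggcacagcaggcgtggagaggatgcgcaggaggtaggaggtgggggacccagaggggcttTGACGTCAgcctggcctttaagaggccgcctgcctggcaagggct
Vip: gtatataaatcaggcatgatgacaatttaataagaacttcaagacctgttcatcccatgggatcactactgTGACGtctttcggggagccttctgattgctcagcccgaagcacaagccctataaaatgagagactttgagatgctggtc
Cck: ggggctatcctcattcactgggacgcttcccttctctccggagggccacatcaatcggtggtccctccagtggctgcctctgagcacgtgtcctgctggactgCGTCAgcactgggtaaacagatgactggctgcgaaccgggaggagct
RefSeq promoter windows, from 250 bases before to 50 after the start, were at hand for 8 of the 10 genes. The full element was found in those of 2, Sst and Th, beginning 48 and 45 bases before the table's start, and it occurred in 588 of 32851 mouse promoters (1.79%). The part TGACG, which the full element contains on both strands, was found in 6 of the 8 (Sst, Th, Vip, Cck, Cort and Nos1) and in 20.8% of all promoters. Npy and Pvalb held neither. Of the genes with the full element Sst fell and Th did not pass, and Npy, which fell, held no match in this window.

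Th, on chromosome 7 (142892779 to 142899995), encodes tyrosine hydroxylase, the rate-limiting enzyme of dopamine synthesis, which a small interneuron class of the striatum also contains. Levels were dim, at 5.30, 5.54, 5.17, 5.62 and 5.62 in R6/2 mice, against 5.80, 5.51, 6.17 and 5.91 in wild-type mice. Only wild-type 47 fell within the R6/2 range. The difference was -0.40 ± 0.14 (SE, 95% interval -0.70 to -0.10) and did not pass (adjusted p = 0.0711). Leaving out wild-type 47 gave -0.51 ± 0.13, which passed (adjusted p = 0.0306). With the mean of the cortex markers as a covariate it was -0.13 ± 0.18 (adjusted p = 0.779).

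Dopamine neurons of the midbrain, whose axons fill the striatum, also express Th. Whether they add to the Th RNA of these striatal samples was not tested. Of 7 midbrain dopamine markers 1 fell (Aldh1a1) and 0 rose, and their mean was 4.78 to 5.17 in R6/2 and 4.90 to 5.22 in wild-type mice. The dopamine transporter gene Slc6a3, a defining marker, read 4.32 to 4.63 in R6/2 and 4.34 to 4.72 in wild-type arrays, near the dim end, and did not pass (-0.08 ± 0.10, adjusted p = 0.601). Among 9 genes of dopamine and cofactor synthesis, Spr, a reductase that makes the cofactor of tyrosine hydroxylase, rose by 0.42 ± 0.10 (adjusted p = 0.0149) and the aldehyde dehydrogenase gene Aldh1a1 fell by 0.73 ± 0.22 (adjusted p = 0.0453). The lists share genes, and this fall of Aldh1a1 is the same call as that among the midbrain markers. The decarboxylase gene Ddc gave 0.40 ± 0.16 (adjusted p = 0.109) and the other 6 did not pass either.

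The calcium-binding proteins, which buffer or sense calcium through EF-hand loops, differed from each other. Calb1, on chromosome 4 (15881264 to 15906709), had the smallest adjusted p of the 10 genes. Its main probe set read 11.10, 11.18, 10.70, 11.26 and 11.14 in R6/2 mice, against 11.52, 11.57, 11.75 and 11.63 in wild-type mice. All R6/2 mice were lower than all wild-type mice, R62_105 most of all, and the fall was 0.54 ± 0.11 (SE, adjusted p = 0.00727), to 0.687 of the wild-type level. R62_105 had the lowest mean of projection neuron markers too (9.75, against 10.18 to 10.56 in the other R6/2 mice), and the part of those cells in the Calb1 value was not tested.

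All 4 probe sets of Calb1 were lower in R6/2 mice on average. Tested one by one, 3 passed: 1417504_at (-0.54 ± 0.11, adjusted p = 0.0131), 1448738_at (-0.65 ± 0.18, adjusted p = 0.0495) and 1458836_at (-0.59 ± 0.16, adjusted p = 0.0454). The remaining one, 1456934_at, gave -0.65 ± 0.19 (adjusted p = 0.0567) although its groups did not overlap, at 6.74 to 7.43 in R6/2 and 7.54 to 8.35 in wild-type mice. In 1458836_at a single R6/2 mouse, R62_95 (5.09), reached the wild-type range of 4.98 to 5.23. The first and second of these probe sets name the same source sequence, so they are not independent measurements.

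**Figure D2:**
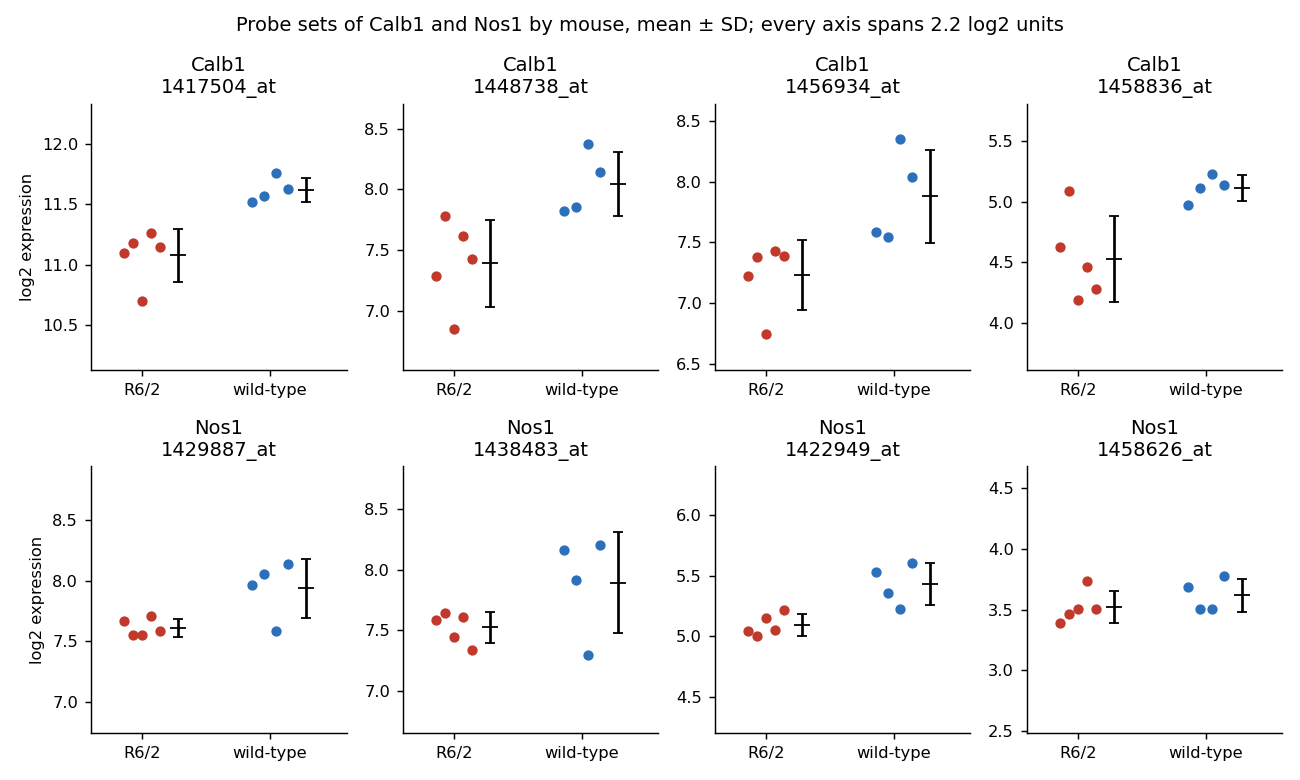
Log2 expression of the 4 probe sets each of Calb1 and Nos1 in R6/2 (red, left) and wild-type mice (blue, right), with mean ± SD (n = 5 and 4). R62_105 is the lowest of all mice in each Calb1 probe set, and wild-type 49, the third wild-type point, lies within or below the R6/2 values in 1429887_at and 1438483_at of Nos1.

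Pvalb, on chromosome 15 (78191112 to 78206400), encodes parvalbumin, the buffer of fast-spiking interneurons. Levels were 8.95, 8.33, 9.38, 8.70 and 9.09 in R6/2 mice, against 8.04, 8.82, 9.06 and 7.57 in wild-type mice. Both genotypes spread widely and overlapped, and the difference of 0.52 ± 0.30 (SE) did not pass (adjusted p = 0.266), with a 95% interval of -0.14 to 1.17. With the cortex score as a covariate it was 0.06 ± 0.41 (adjusted p = 0.968). Without R62_109 and wild-type 49, the 2 arrays highest in cerebellum markers, it was 0.69 ± 0.31 (adjusted p = 0.190). Leaving out each mouse in turn gave 0.25 (without wild-type 66, adjusted p = 0.571) to 0.74 (without wild-type 49, adjusted p = 0.108). The part of neighbouring tissue in the Pvalb value was not tested.

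Genes of fast-spiking physiology did not move one way. Of 12 measured, 5 rose, 2 fell and 5 did not pass, with a median of 0.19. The potassium channel gene Kcnc4 rose by 0.81 ± 0.20 (adjusted p = 0.0168) and the sodium channel gene Scn1a by 0.38 ± 0.09 (adjusted p = 0.0191), whereas Syt2, a calcium sensor of fast synapses, fell by 0.70 ± 0.09 (adjusted p = 0.000676) and Hapln1, a link protein of perineuronal nets, by 0.90 ± 0.17 (adjusted p = 0.00465). Syt2 was 5.83 to 6.27 in R6/2 and 6.69 to 6.87 in wild-type mice, with no overlap. Given the cortex score as a covariate, Syt2 still passed (-0.66, adjusted p = 0.0422), and Kcnc4 (0.19, adjusted p = 0.555), Scn1a (0.16, adjusted p = 0.526) and Hapln1 (-0.48, adjusted p = 0.223) did not.

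Calb2, on chromosome 8 (110142526 to 110168212), encodes calretinin. Levels were 6.73, 7.31, 7.10, 7.03 and 9.12 in R6/2 mice, against 6.82, 6.70, 7.12 and 6.89 in wild-type mice. R62_109 exceeded every other mouse by a wide margin, and the other R6/2 mice overlapped the wild-type mice. The difference was 0.58 ± 0.40 (SE, adjusted p = 0.358), and without R62_109 it was 0.16 ± 0.13 (adjusted p = 0.463). R62_109 was also the array with the highest mean of 11 cerebellum markers (6.12, against 4.46 to 4.70 in the other R6/2 mice), and wild-type 49, the highest wild-type mouse for Calb2, had the highest such mean among wild-type mice (4.93, against 4.21 to 4.40). Of the 11 cerebellum markers, 1 rose (Slc1a6) and 10 did not pass. The part of cerebellar or other neighbouring tissue in the Calb2 value was not tested.

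Among 15 other EF-hand genes 1 rose and 2 fell, with a median of -0.03. Hpca, which encodes the calcium sensor hippocalcin, fell by 0.95 ± 0.10 (adjusted p = 0.000344), at 11.61 to 12.04 in R6/2 and 12.63 to 12.97 in wild-type mice. Necab2 fell by 0.99 ± 0.19 (adjusted p = 0.00554), and Vsnl1, a visinin-like calcium sensor, rose by 0.94 ± 0.24 (adjusted p = 0.0220). Hpca alone of these 3 passed with the cortex score as a covariate (-0.68, adjusted p = 0.0209).

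Vip and Cck were the most variable peptides. Vip, on chromosome 10 (5639193 to 5647617), encodes vasoactive intestinal peptide. Its levels were 6.47, 6.14, 7.68, 6.25 and 6.94 in R6/2 mice, against 6.74, 6.90, 5.86 and 5.39 in wild-type mice. The groups overlapped, and the difference was 0.47 ± 0.36 (SE, 95% interval -0.34 to 1.27, adjusted p = 0.419). Leaving out each mouse in turn gave 0.19 (without wild-type 66) to 0.69 (without wild-type 47), with 0.22 without R62_105, and none of these passed (adjusted p = 0.270 to 0.764).

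Cck, on chromosome 9 (121489824 to 121495694), encodes cholecystokinin, a peptide of gut and brain. It was 9.83, 8.95, 9.93, 8.45 and 9.41 in R6/2 mice, against 8.80, 9.11, 7.55 and 7.55 in wild-type mice. Wild-type 49 and 66 lay well below all other mice, whereas 46 and 47 were within the R6/2 range. The difference of 1.06 ± 0.39 (SE, 95% interval 0.21 to 1.92), the largest of the 10 in size and 2.09 times the wild-type level, did not pass (adjusted p = 0.0864). It passed without wild-type 47 (1.35 ± 0.38, adjusted p = 0.0469) or without R62_107 (1.28 ± 0.37, adjusted p = 0.0451). It did not pass with any other mouse left out and was lowest without wild-type 49 (0.83 ± 0.40, adjusted p = 0.198) or wild-type 66 (0.83 ± 0.40, adjusted p = 0.204).

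The mean of the cortex markers was 7.31, 7.02, 7.57, 6.76 and 7.42 in R6/2 mice and 6.97, 6.71, 6.33 and 6.06 in wild-type mice. Within R6/2 mice R62_105 was the highest for this mean, for Cck and for Vip, and R62_107, lowest for this mean, was lowest for Cck but not for Vip (R62_95). Within wild-type mice 66 was the lowest for this mean and for Vip and 49 for Cck, while 46 was highest for this mean but 47 for both peptides. Their part in the Cck and Vip values was not tested. Of the 10 cortex markers 4 rose, 1 fell and 5 did not pass. Slc17a7, a vesicular glutamate transporter expressed in cortical projection neurons, read 6.94 to 8.65 in R6/2 and 5.58 to 7.88 in wild-type mice. How specific these markers are to cortex was not tested. With that mean as a covariate the difference was -0.17 ± 0.27 for Cck (adjusted p = 0.814) and -0.69 ± 0.26 for Vip (adjusted p = 0.237), below 0 in both. The covariate fit called only 1.81% of all genes and none of the 10, as the falls became -0.37 ± 0.17 for Npy (adjusted p = 0.315), -0.22 ± 0.10 for Sst (adjusted p = 0.326) and -0.31 ± 0.13 for Calb1 (adjusted p = 0.290).

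**Figure D3:**
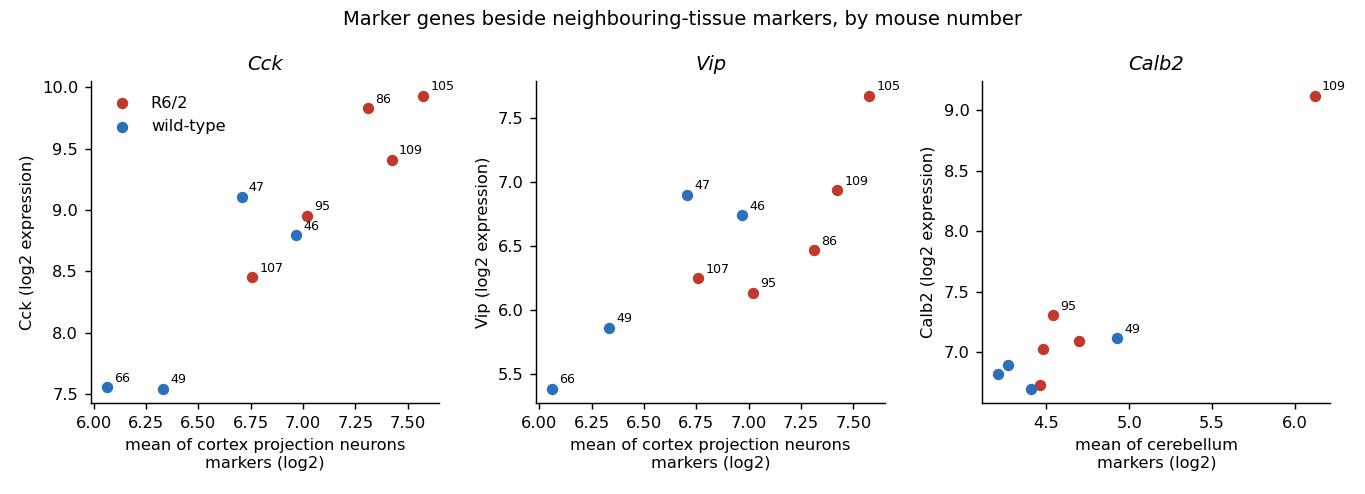
Log2 expression of Cck and Vip against the mean of 10 cortex projection neuron markers, and of Calb2 against the mean of 11 cerebellum markers, in R6/2 (red) and wild-type mice (blue), labelled by mouse number where space allowed. The lowest Cck and Vip belong to wild-type 49 and 66, which have the lowest cortex means, and R62_109 is highest for both Calb2 and the cerebellum mean.

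**Figure D4:**
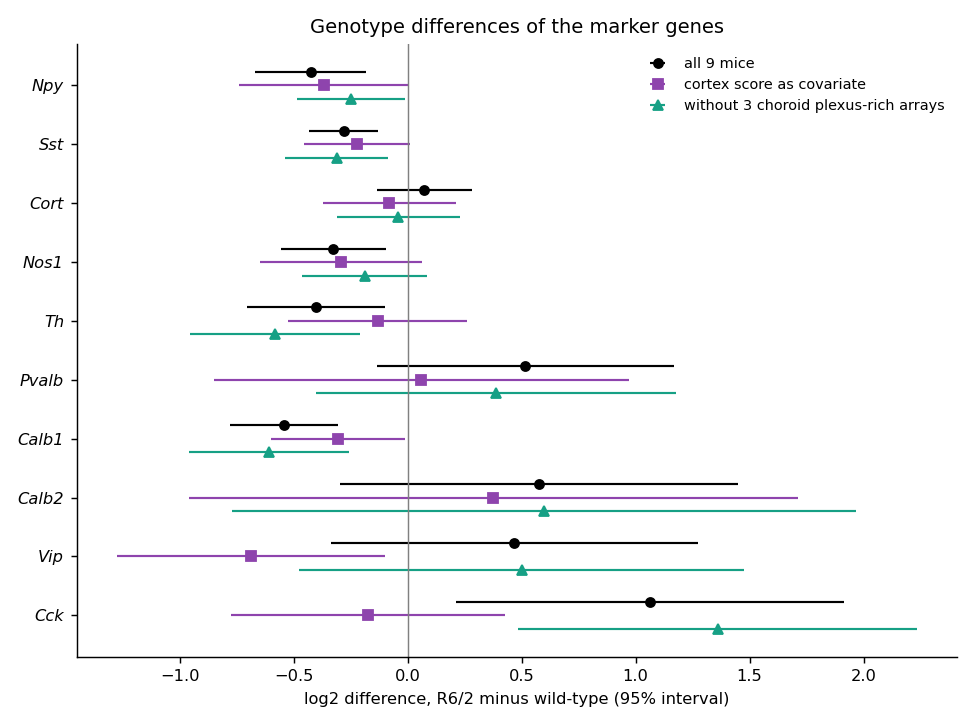
Log2 difference of the 10 genes, R6/2 minus wild-type, with 95% intervals from limma: all 9 mice (black circles), the cortex score as a covariate (purple squares) and without R62_107 and wild-type 47 and 66 (green triangles). The estimates for Npy, Sst, Nos1, Th and Calb1 are below 0 in all 3 fits, and those of Vip and Cck change sign with the covariate.

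Age in days differed by genotype except for R62_86, which matched the wild-type mice. In that mouse Npy (9.75), Sst (10.55) and Calb1 (11.10) were each below the whole wild-type range. For these genes every transgenic mouse lay below that range, so the values of R62_86 are no separate check on age. A fit with age as a covariate sets R62_86 alone against the wild-type mean and assumes that this mouse varies like the others, so it is no separate evidence. Its differences were -0.41 for Npy, -0.22 for Sst and -0.52 for Calb1, and 0 of the 10 passed by limma (adjusted p = 0.272 or more), where 0.165% of all genes did.

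Around the 10 genes, 9 lists of related genes were examined, in which 15 genes fell and 14 rose, or 27.1% of those measured, with a median of 0.01. Over all genes 16.9% were called, 7.57% lower and 9.28% higher, and the counts of each list stand against these shares. These shares include dim genes, and a larger share was called when only the brighter genes were tested, so 27.1% is not read as an excess. Of 15 receptors of the peptides, 1 fell and 0 rose. Npy2r, the receptor by which neuropeptide Y limits transmitter release, fell by 0.50 ± 0.11 (adjusted p = 0.0104). It was dim, at 4.30 to 4.75 in R6/2 and 4.76 to 5.10 in wild-type mice, and gave -0.32 with the cortex score as a covariate (adjusted p = 0.319). The somatostatin receptor genes Sstr5 (-0.37 ± 0.15, adjusted p = 0.122) and Sstr1 (0.21 ± 0.12, adjusted p = 0.268) did not pass, nor did Npy5r (-0.19 ± 0.11, adjusted p = 0.264).

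Of 11 genes listed as partners or targets of the nitric oxide synthase, 4 fell and 0 rose. Pde1b, a calcium-activated phosphodiesterase, fell by 1.26 ± 0.15 (adjusted p = 0.000565) and Dlg4, the scaffold PSD-95 that tethers the synthase, by 0.63 ± 0.10 (adjusted p = 0.00198). Pde2a, a phosphodiesterase stimulated by cyclic GMP, fell by 0.54 ± 0.11 (adjusted p = 0.00994) and Gucy1a1, a subunit of the nitric oxide receptor, by 0.60 ± 0.15 (adjusted p = 0.0181). None of these 4 overlapped between genotypes, all R6/2 values lying below all wild-type values, as for 8.09% of all genes. They are the genes of smallest p in this list, so their lack of overlap is no separate result. Projection neurons express these genes as well, and Pde1b and Dlg4 but not Pde2a or Gucy1a1 passed with the cortex score as a covariate (adjusted p = 0.0313 and 0.0479).

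Of 15 prohormone processing and dense-core vesicle genes, 3 rose, 0 fell and 12 did not pass, and these calls are a share near the 16.9% of all genes. Cadps, a priming factor of dense-core vesicles, rose by 0.61 ± 0.11 (adjusted p = 0.00374), with every R6/2 mouse above every wild-type mouse. Pcsk1n, an inhibitor of a proprotein convertase, rose by 0.31 ± 0.09 (adjusted p = 0.0383) and the convertase gene Pcsk1 itself by 0.55 ± 0.16 (adjusted p = 0.0402). Scg5, a chaperone of another convertase, gave 0.46 ± 0.15 (adjusted p = 0.0641). With the cortex score as a covariate none of these passed (Cadps 0.31, adjusted p = 0.169).

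Of the genes that make and package GABA, 1 of 4 fell: Gad2, a glutamate decarboxylase, by 0.40 ± 0.12 (adjusted p = 0.0397). Gad1 (-0.27 ± 0.10, adjusted p = 0.0909) and the vesicular transporter gene Slc32a1 (-0.19 ± 0.14, adjusted p = 0.380) did not pass. Interneuron transcription factors gave 3 of 12 higher and 0 lower. Satb1 rose by 1.02 ± 0.24 (adjusted p = 0.0145), Nfib by 0.71 ± 0.13 (adjusted p = 0.00403) and Dlx1 by 0.44 ± 0.13 (adjusted p = 0.0450), while Dlx6 gave -0.36 ± 0.12 (adjusted p = 0.0562). Satb1 and Nfib are also expressed in cortex, and with the cortex score as a covariate Satb1 was 0.48 (adjusted p = 0.440) and Nfib 0.70 (adjusted p = 0.109).

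Of 14 other interneuron genes 4 fell and 1 rose. Reln, a secreted matrix protein, fell by 0.51 ± 0.11 (adjusted p = 0.0100), the receptor kinase gene Kit by 0.60 ± 0.13 (adjusted p = 0.0104) and the chemokine gene Cxcl14 by 0.55 ± 0.17 (adjusted p = 0.0435). Penk, the enkephalin precursor and a projection neuron gene above all, fell by 1.88 ± 0.16 (adjusted p = 0.000127). None of Reln, Kit and Cxcl14 passed with the cortex score as a covariate (adjusted p = 0.311, 0.148 and 0.428), and Penk did (-1.47, adjusted p = 0.00714).

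**Figure D5:**
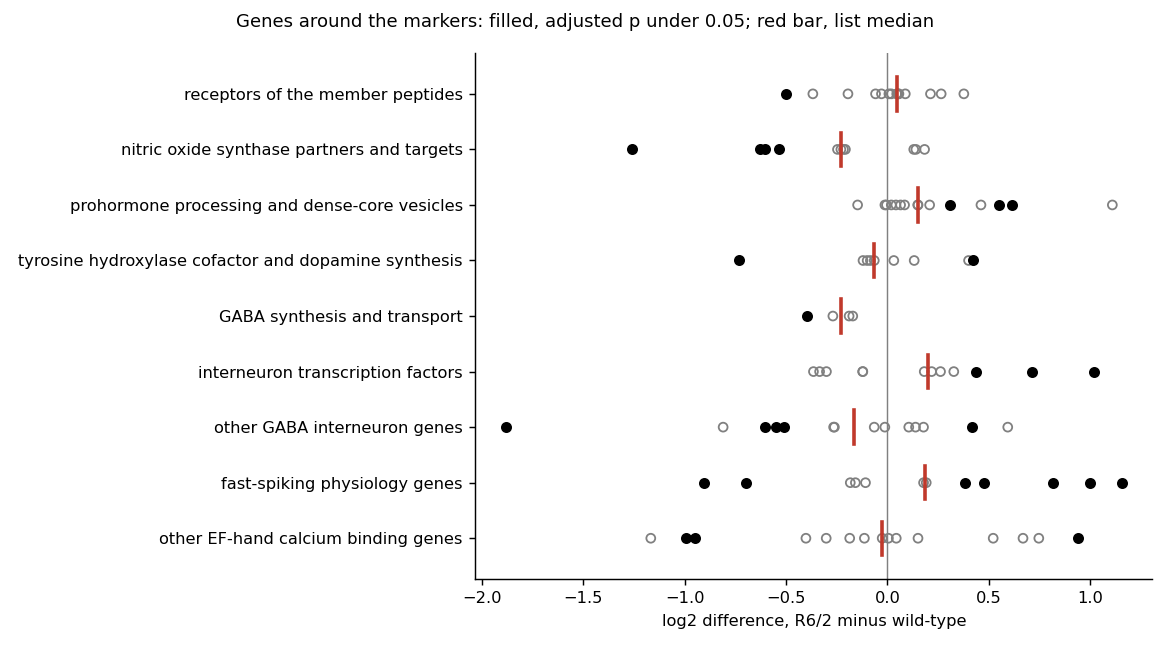
Log2 difference, R6/2 minus wild-type, of each measured gene in 9 lists of related genes (filled: adjusted p under 0.05; open: not passed), with each list's median as a red bar. Called genes lie on both sides of 0 in fast-spiking physiology genes, whereas those of nitric oxide partners are all lower and those of prohormone processing all higher.

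The genes with the most similar profile to each of the 3 that fell were taken by the smallest root mean square difference over the 9 mice, after centring on the wild-type mean. For Npy they were Galnt12 (0.0765 log2 units), Lce1i (0.0909) and Maats1 (0.0930). For Sst they were D5Ertd579e (0.0455), Zfp36l2 (0.0520) and Ubl3 (0.0539). For Calb1 they were Tle1 (0.0651), Pde8b (0.0734) and Ric8b (0.0761). None of the other 9 genes was among them.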

How the data were processed

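The authors' deposited log2 values were made with RMA (affy), per the submitters' processing notes, and so show a gene's change against the rest of its array. No versions were at hand. RNA was prepared with TRIzol and amplified in vitro, per the labels' protocols. Array medians were 5.37 to 5.45, and the number of arrays limits the precision. Of the probe sets, 34945 named exactly 1 gene in the platform annotation. Each of 18193 genes was represented by its brightest probe set on average, with positions from RefSeq (GRCm38.p6). limma 3.58.1 in R 4.3.3 (lmFit, eBayes) compared R6/2 with wild-type mice, the replicates, in a model of genotype alone. Tests were two-sided and Benjamini-Hochberg adjustment covered all genes. The genes, lists and tests were chosen with earlier results of these data known. Lists were described by counts only. Named genes were the 10, up to 4 of smallest p in each list and the 3 nearest in profile to each gene that fell. Slc17a7 and Slc6a3 were added as markers of cortical projection neurons and dopamine neurons. Alternatives covered probe set choice, a filter on dim genes, normalization, centring, variance models, covariates and left-out arrays. In simulated data on these 18193 genes, limma found 67.2% of 67 genes shifted by 0.5 (log2), 97.0% of 67 shifted by 1 and 100% of 66 shifted by 2. No other genes were shifted there, and each gene was drawn independently. In the mice 16.9% of all genes were called, so these rates need not hold for them. Figures were drawn with matplotlib 3.10.9.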

Additional observations from a re-analysis of the deposited data

Results flagged for a closer look

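Of the 32 combinations of probe set and genotype examined, 2 held a mouse whose gap to the nearest other mouse of its group exceeded Dixon's 95% critical value, which chance gives for about 1 in 20. Calb2 in R62_109 was 9.12, against 7.31 in the next R6/2 mouse, a gap of 0.759 of the R6/2 range. Cort in R62_86 was 6.82, against 6.65 in the next R6/2 mouse, a gap of 0.718 of the range.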

How the results depend on the processing

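No paired analysis was possible because the mouse numbers are not shared between the genotypes. The fit with age rests on R62_86 as the single R6/2 mouse of the wild-type age. With 9 arrays the precision is limited, and RMA leaves changes in total RNA unseen. Calb1 fell under all alternatives except those with the cortex score (adjusted p = 0.290) or age (0.272) as a covariate and the one without the 3 choroid plexus-rich arrays (0.0655), by limma. Of the 10 genes, 3 were lower and 0 higher. After housekeeping centring 5 were lower, where the reference genes were themselves higher in R6/2 on average. With a filter on dim genes, quantile normalization or array weights 4 were lower, Nos1 being the addition. The same 4 were lower without the 2 arrays highest in cerebellum markers. Only 1 was lower with the choroid plexus score as a covariate, and 0 with the cortex score, with age, or without the 3 choroid plexus-rich arrays. The last alternative, and that without the 2 arrays highest in cerebellum markers, were chosen after seeing the data. Leaving out each mouse in turn gave 2 to 4 lower and 0 to 1 higher: Npy did not pass without wild-type 47 (adjusted p = 0.0658 by limma), wild-type 66 (0.0676) or R62_109 (0.0568), nor Sst without wild-type 47 (0.0506). Without moderation of the variance Npy did not pass (0.0685). Directions were followed for the 10 genes and the up to 4 of smallest p in each list. They turned for Cort after housekeeping centring (-0.029), with the cortex (-0.080) or choroid plexus (-0.038) score, and without the 3 arrays (-0.041). Calb2 turned with age (-0.15). With the cortex score Vip (-0.69), Cck (-0.17), Sstr1 (-0.014), Abat (0.014) and Slc32a1 (0.14) turned. Other listed genes turned with that score too, among them Cadps2 (1.11 to -0.30) and Cckbr (0.38 to -0.46). Of 16 probe sets of the 10 genes, 6 were lower, against 0 with the cortex score and 1 to 6 when a mouse was left out (1 without wild-type 47, wild-type 66 or R62_105; 2 without wild-type 46, R62_86, R62_107 or R62_109); 0 were higher throughout. Of the related genes, 15 were lower and 14 higher. These counts were 27 and 8 after housekeeping centring, 0 and 0 with age, 5 and 0 with the cortex score, and 8 and 2 without the 3 arrays. Only 3 were higher without moderation, 3 with the choroid plexus score and 6 without the 2 cerebellum-rich arrays; a mouse left out gave 12 to 16 lower and 6 to 13 higher, the fewest higher without wild-type 66 or R62_109. Over all genes, 1378 lower and 1688 higher became 2411 and 732 after housekeeping centring, 26 and 4 with age, 202 and 128 with the cortex score, and 489 and 393 without the 3 arrays. There were 1081 higher without moderation and 1037 with the choroid plexus score; a mouse left out gave 1020 to 1386 lower and 1120 (without wild-type 47) to 1699 higher. The differences between changes ranged, with a mouse left out, from -0.22 to -0.07 for Npy minus Sst, -0.18 to -0.05 for Npy minus Nos1, -1.24 to -0.62 for Npy minus Pvalb, -0.033 (without wild-type 66) to 0.16 for Sst minus Nos1, -1.03 to -0.54 for Sst minus Pvalb and -1.19 to -0.51 for Nos1 minus Pvalb. Beyond the smaller numbers of mice and genes that some alternatives use by construction, the cause was not tested.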
